A study of Mus musculus with 14 samples.

Results

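The 39 Hox genes of the mouse lie in 4 gene clusters, and the binding of 7 transcription factors in and around these clusters was examined during the formation of blood cells from embryonic stem cells. The members were all genes whose RefSeq symbol is Hoxa, Hoxb, Hoxc or Hoxd followed by a number, which is 39 of the 21000 coding genes with a curated transcription start site (TSS). The peaks examined were those lying wholly inside a cluster extended by 50 kb on each side, which is 88 of the 158488 deposited peaks. Binding sites had been mapped by ChIP-seq, in which DNA bound by a factor is pulled down with an antibody and sequenced. The files give 14 lists of peaks, each 400 bp wide and without a score. All cells came from a strain 129 embryonic stem cell line that carries GFP under the control of the Brachyury gene. Mesoderm (MES) was sorted as GFP+/Flk1- and hemangioblasts (HB) as GFP+/Flk1+. Hemogenic endothelium (HE) was sorted as Tie2+/Kit+/CD41-, hematopoietic progenitors (HP) as CD41+, and macrophages (MAC) as CD11b+. C/EBPβ was mapped at all 5 stages, PU.1 and RUNX1 in HP and MAC, GATA2 in HB and HP, GATA1 and GFI1B in HP, and ELK4 in MES. No treatment was applied and each combination of factor and stage was 1 list from this single cell system, so there were no replicate lists, and no difference between lists was tested. The authors had merged technical replicates for MES, HE and HP C/EBPβ, HB GATA2 and MAC RUNX1, and the other lists came from 1 run each.

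Hox genes encode homeodomain transcription factors that give the parts of the embryo their identity along the head-to-tail axis. Within a cluster the genes are numbered by paralog group, and low-numbered genes are active earlier and closer to the head than high-numbered ones. The clusters are classical targets of the Polycomb repressors, which keep them silent, and of the Trithorax protein encoded by Kmt2a, which keeps them active. In blood, Hoxa9, Hoxa10 and Hoxb4 are known from stem and progenitor cells and are switched off as myeloid cells mature, and Hoxa3 is known from hemogenic endothelium. PU.1 and C/EBPβ are factors of the myeloid lineage, GATA2, RUNX1 and GFI1B act in the making of blood progenitors, and ELK4 is a widely expressed ETS factor. Gene expression was not analysed here, and a peak shows where a factor was found, not what it did.

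The HoxA window (chr6:52105367-52310880, GRCm38, 206 kb) holds 11 Hox genes. The HoxB window (chr11:96144316-96418254, 274 kb) holds 10, and the HoxC window (chr15:102871131-103086856, 216 kb) and the HoxD window (chr2:74618225-74815142, 197 kb) hold 9 each. Of the 88 peaks, 24 lay in the HoxA window, 25 in HoxB, 14 in HoxC and 25 in HoxD. Of all peaks, 57 lay inside the clusters and 31 in the flanks. The MAC PU.1 list gave 47 peaks and the MAC C/EBPβ list 24. Together these lists held 80.7% (70.9% to 88.3%) of the window peaks and 87.3% of all peaks. HP contributed 14 peaks (8 of PU.1, 4 of GFI1B, 1 of GATA2 and 1 of C/EBPβ), MES 2 and HB 1, all 3 of them C/EBPβ peaks.

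The other 6 lists held no peak in any of the windows. These were MES ELK4, HB GATA2, HE C/EBPβ, HP GATA1, HP RUNX1 and MAC RUNX1. At the mean density of each list over the genome, between 0.0264 (MAC RUNX1) and 0.341 peaks (HP RUNX1) would fall into the 4 windows together, so that these lists are too short to show an absence. The exact Poisson interval for a count of 0 reaches 3.69 peaks, which for HP RUNX1 corresponds to a density of 10.8 times its genome mean and for HE C/EBPβ to 75.1 times. The genome mean makes no allowance for promoters, in which the windows are rich. Within 2 kb of a coding TSS lay 60.9% of the HP RUNX1 list and 64.9% of the MES ELK4 list. HE cells were few, and carrier mRNA and histone had been added during their immunoprecipitation.

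**Figure D1:**
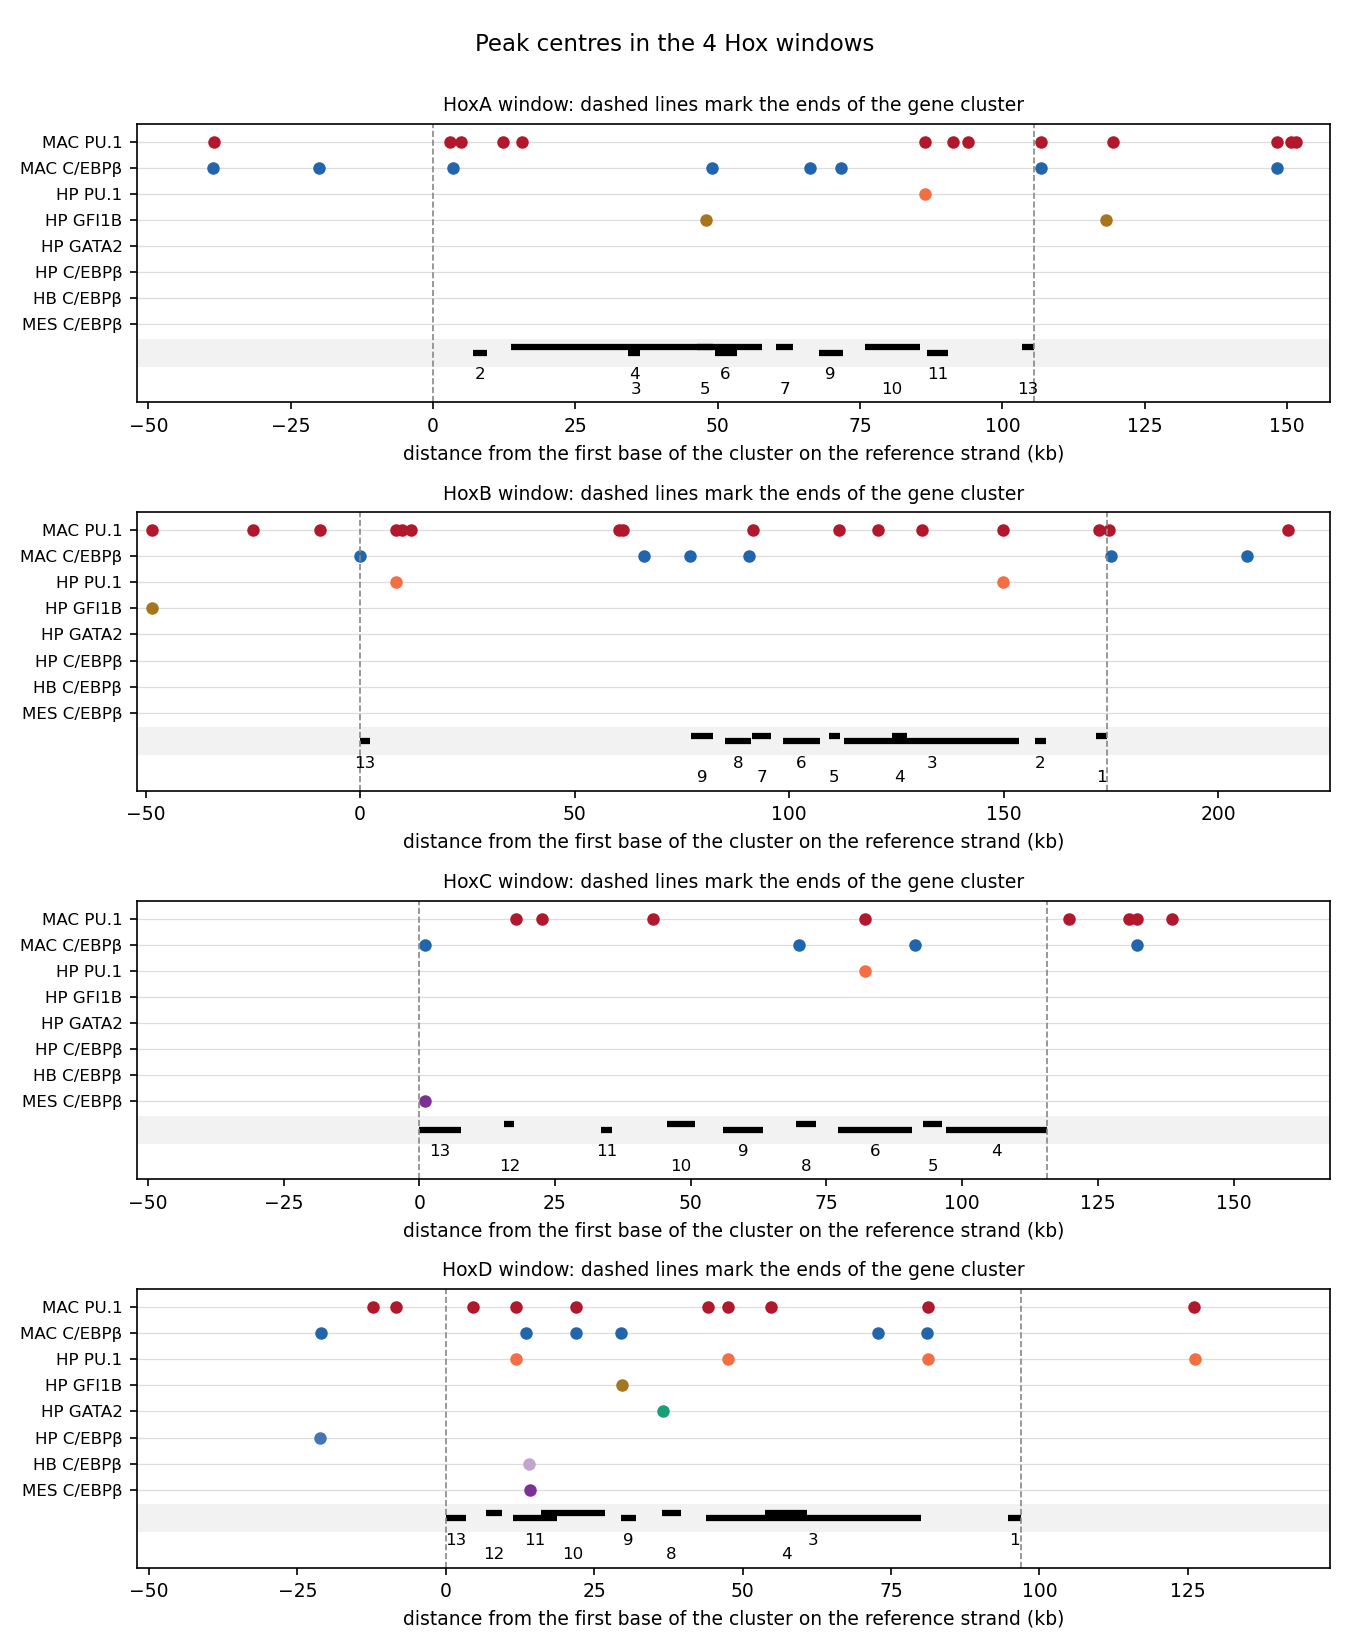
Position of each peak centre in the 4 extended clusters, as the distance in kb from the first base of the cluster on the reference strand, with 1 line for each of the 8 lists that held a peak. Black bars are Hox genes with their paralog numbers (1 gene is not drawn) and dashed lines are the ends of each cluster. The 47 MAC PU.1 peaks spread over all 4 windows, and 7 of the 8 HP PU.1 peaks lie inside the clusters.

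Counted without regard to promoters, macrophage PU.1 was denser in the Hox windows than over the genome. The 47 MAC PU.1 peaks (95% exact Poisson interval 34.5 to 62.5) corresponded to 52.7 peaks per Mb, against 31.3 per Mb over the genome. The ratio was 1.68 (1.24 to 2.24). For the 24 MAC C/EBPβ peaks (15.4 to 35.7) the density was 26.9 peaks per Mb against 20.95, a ratio of 1.28 (0.823 to 1.91) whose interval included 1. The 8 HP PU.1 peaks (3.45 to 15.8) gave a ratio of 2.17 (0.937 to 4.28), and the 4 HP GFI1B peaks (1.09 to 10.2) stood against 0.703 expected at the genome mean, a ratio of 5.69 (1.55 to 14.6). Inside the gene clusters alone, without the flanks, the ratio was 3.44 (1.38 to 7.09) for HP PU.1 and 5.15 (0.624 to 18.6) for HP GFI1B, so that whether either interval included 1 depended on the flanks. These intervals cover counting error only and treat neighbouring peaks as independent. The windows also differed from the genome in sequence, with 47.1% G and C bases against 41.7%, 23.0% repeat bases against 36.4%, and a ratio of observed to expected CpG of 0.335 against 0.190. The part of these differences in the densities was not tested.

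When the genome was cut into tiles as long as each window, the Hox windows lay above the median tile but within the usual range. The HoxA window held 13 MAC PU.1 peaks, and 79.4% of the 12342 tiles of that length held fewer (median 3). The corresponding values were 16 peaks and 77.4% for HoxB (median 5), 8 peaks and 64.7% for HoxC (median 4), and 10 peaks and 73.1% for HoxD (median 3). MAC C/EBPβ had 8 peaks in HoxA, 6 in HoxB, 4 in HoxC and 6 in HoxD, and between 55.97% (HoxC) and 75.8% (HoxA) of tiles held fewer. In HP PU.1, HoxD stood higher than the other windows, since its 4 peaks exceeded 94.0% of the tiles, of which 59.6% held none.

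Of the bases in the windows, 18.9% lay within 2 kb of a coding TSS, against 3.34% of the genome. MAC PU.1 had 12 peaks in these promoter bases, or 71.0 per Mb (36.7 to 124), against 168.9 per Mb in the promoter bases of the whole genome. The Hox promoters thus held 0.421 times (0.217 to 0.735) the genome density. In the remaining bases the 35 peaks gave 48.4 per Mb (33.7 to 67.3) against 26.5 per Mb, a ratio of 1.82 (1.27 to 2.54). MAC PU.1 was thus denser than in the genome outside the promoters and sparser at them. At these genome densities 28.5 promoter peaks and 19.2 other peaks would be expected, together no fewer than the 47 found. This split by promoter was added after the data were seen. For MAC C/EBPβ neither ratio departed from 1 beyond its interval, with 0.751 (0.400 to 1.28) from 13 promoter peaks and 0.839 (0.419 to 1.50) from 11 other peaks. HP PU.1 had 2 promoter peaks (ratio 0.525, 0.0636 to 1.90) and 6 other peaks (2.37, 0.871 to 5.17). Lists shorter than HP PU.1, HP GFI1B among them, were not split in this way.

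**Figure D2:**
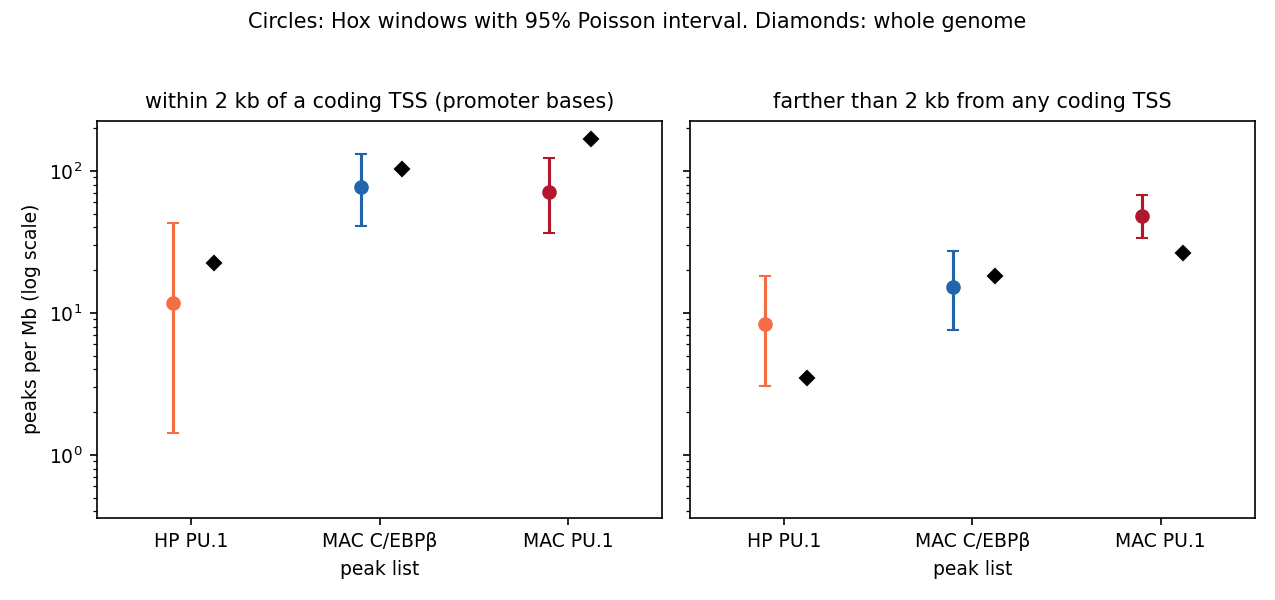
Peaks per Mb (log scale) of HP PU.1, MAC C/EBPβ and MAC PU.1 in the promoter bases (left) and in all other bases (right). Circles are the Hox windows with 95% Poisson intervals and diamonds are the whole genome. MAC PU.1 in the Hox windows was below the genome in promoter bases (71.0 against 168.9) and above it elsewhere (48.4 against 26.5).

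Counted by gene, 20 of the 39 Hox genes had a peak centre within 2 kb of a coding TSS in any list, or 51.3% (exact Clopper-Pearson 95% interval 34.8% to 67.6%), against 59.3% of all coding genes. In MAC PU.1 the count was 10 genes, or 25.6% (13.04% to 42.1%), and the share of all coding genes, 51.4%, lay above this interval. In MAC C/EBPβ it was 13 genes, or 33.3% (19.1% to 50.2%), against 37.7%. Only 4 Hox genes, Hoxa13, Hoxb7 and Hoxd10 among them, had a promoter peak of both factors in macrophages, which is 10.3% (2.87% to 24.2%) against 30.8% of coding genes. The median distance from a Hox gene to its nearest MAC PU.1 peak was 6313 bp, and over all coding genes 1661 bp. For MAC C/EBPβ the medians were 6708 bp and 5928 bp, and for HP PU.1 they were 21691 bp and 56801 bp. By these medians Hox genes were farther from MAC PU.1 than coding genes in general and closer to HP PU.1, whose list is much shorter. The medians have no interval. Neighbouring genes share their nearest peak, and the HP PU.1 median rests on at most 8 peaks, so no general closeness can be read from it.

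**Figure D3:**
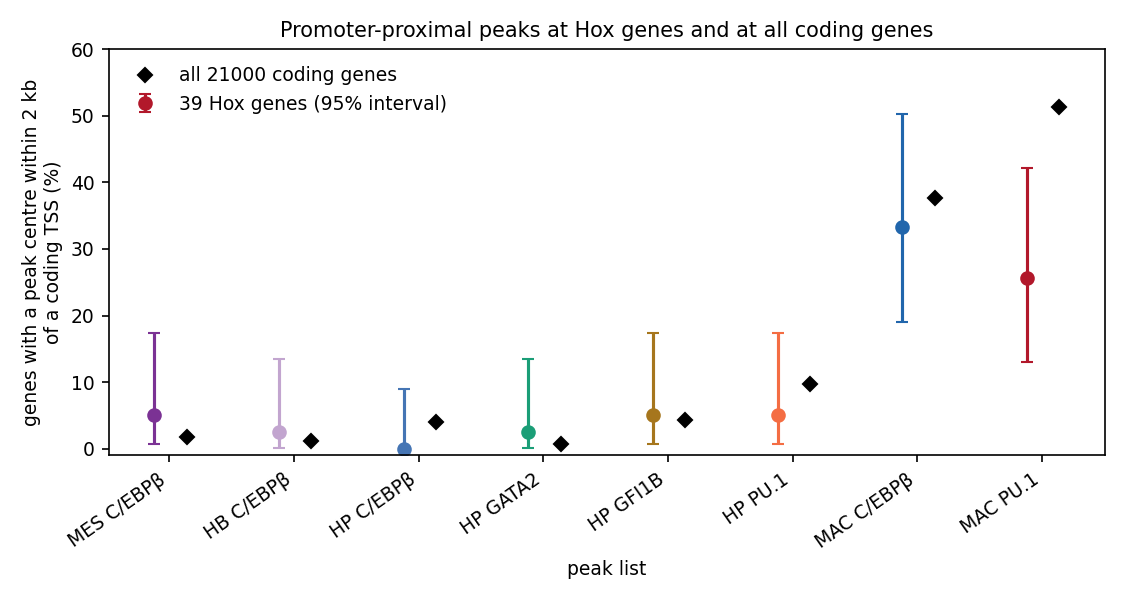
Percentage of the 39 Hox genes (circles, with exact 95% intervals) and of all 21000 coding genes (black diamonds) with a peak centre within 2 kb of a coding TSS, for the 8 lists with a peak in the windows. In MAC PU.1 the diamond (51.4%) lies above the interval of the Hox genes (13.04% to 42.1%), and in MAC C/EBPβ it lies inside.

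The genes with a macrophage promoter peak were spread over the clusters. For MAC C/EBPβ they included Hoxa5, Hoxa9 and Hoxa13, Hoxb7, Hoxb9 and Hoxb13, Hoxc5, Hoxc8 and Hoxc13, and Hoxd9, Hoxd10 and Hoxd11. For MAC PU.1 they included Hoxa10, Hoxa11 and Hoxa13, Hoxb1, Hoxb3 and Hoxb7, and Hoxd3, Hoxd4 and Hoxd10. No HoxC gene had a MAC PU.1 promoter peak, and with 9 genes the upper limit of this share was 33.6%, below the 51.4% of all coding genes. By paralog group, MAC C/EBPβ was found at 1 of 12 promoters of groups 1 to 4 (8.33%, 0.211% to 38.5%), at 4 of 11 of groups 5 to 8 (36.4%, 10.9% to 69.2%) and at 8 of 16 of groups 9 to 13 (50.0%, 24.7% to 75.3%). MAC PU.1 was found at 5 of 12, 1 of 11 and 4 of 16 promoters of the same groups. The intervals of the groups overlapped for both factors, so no difference along the clusters could be read from these counts.

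Several of these peaks lay on or close to the TSS. The MAC C/EBPβ peak of Hoxd9 (chr2:74697763-74700208) was centred 41 bp from the TSS, that of Hoxb13 (chr11:96194316-96196610), known from the prostate and the tail end of the embryo, 43 bp, and that of Hoxb9 (chr11:96271330-96276595) 119 bp. The peak at Hoxa5 (chr6:52201754-52204587), a gene needed in the lung, was 230 bp from the TSS, and that at Hoxa9 (chr6:52223097-52227370), the best known Hox gene of blood progenitors and myeloid leukemia, 297 bp. For the named genes of the MAC PU.1 list the distances ran from 266 bp at Hoxb3 (chr11:96307101-96347930) to 1660 bp at Hoxd10 (chr2:74684273-74695106).

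Another 4 genes had a peak overlapping the gene and none at a promoter, as did 13.7% of coding genes. These were Hoxa3 (chr6:52169059-52213067), Hoxb5 (chr11:96303512-96306121), Hoxb8 (chr11:96279401-96285325) and Hoxc6 (chr15:102998226-103011882). Hoxa3 is long and contains Hoxa4, Hoxa5 and Hoxa6, and 2 of its 3 lists, HP GFI1B and MAC C/EBPβ, came from peaks at the Hoxa5 promoter, so that the peaks cannot be assigned to 1 gene. Likewise the MAC C/EBPβ peak counted for Hoxb7 (chr11:96285604-96290163) lay in the 3′ UTR of Hoxb8, 1829 bp upstream of the Hoxb7 TSS. Together 24 of the 39 genes had a peak of either kind, against 73% of coding genes, and the remaining 15 genes had neither. They were Hoxa2, Hoxa4, Hoxa6 and Hoxa7, Hoxb2, Hoxb4 and Hoxb6, Hoxc4, Hoxc9, Hoxc10, Hoxc11 and Hoxc12, and Hoxd1, Hoxd12 and Hoxd13. Among these is Hoxb4, known for expanding blood stem cells, whose nearest MAC PU.1 peak lay 3260 bp from its TSS and whose nearest HP PU.1 peak lay 25800 bp away.

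**Figure D4:**
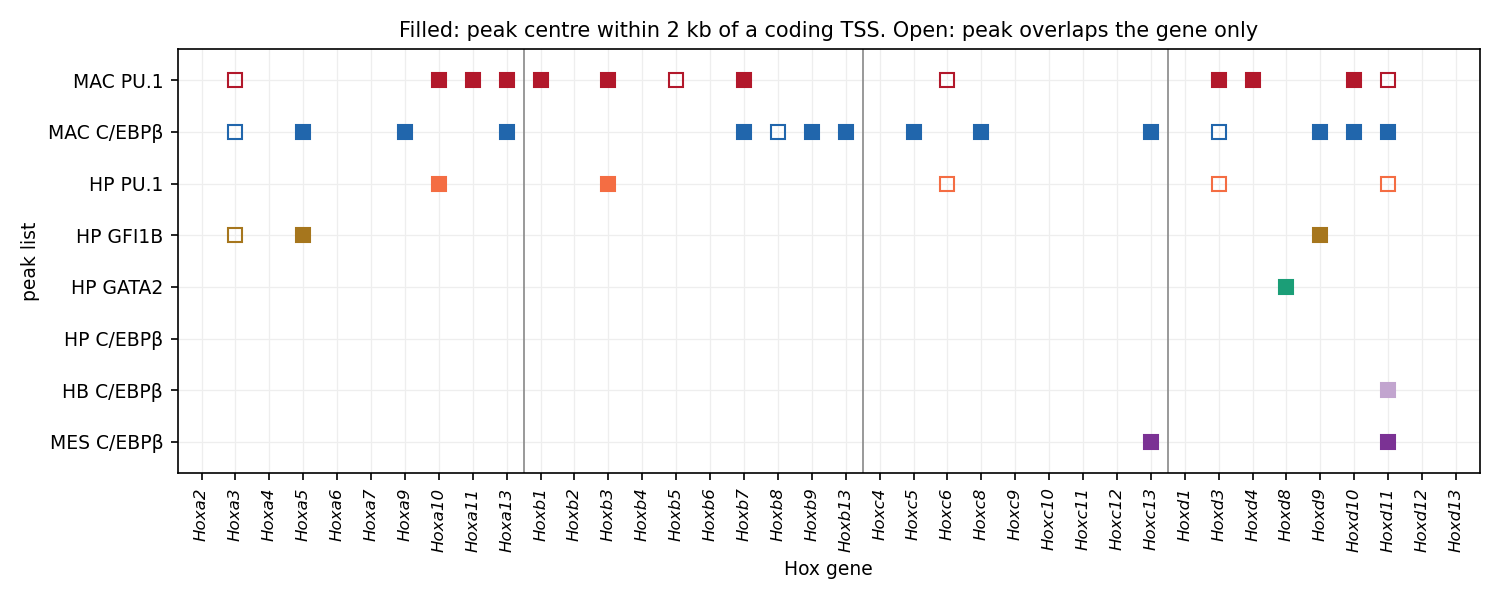
Hox genes (columns, by cluster and paralog number, with 1 gene not drawn) against the 8 lists with a peak in the windows (rows). Filled squares mark a peak centre within 2 kb of a coding TSS and open squares a peak that overlaps the gene only. Of the 20 genes with a promoter peak, 7 had one outside the macrophage lists, and Hoxd11 had filled squares in 3 lists.

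Outside MAC PU.1 and MAC C/EBPβ, promoter peaks were found at 7 Hox genes, which is 17.9% (7.54% to 33.5%) against 20% of coding genes, and all were from stages before the macrophage. They were Hoxa5 and Hoxd9 (HP GFI1B), Hoxa10 and Hoxb3 (HP PU.1), Hoxd8 (HP GATA2), Hoxc13 (MES C/EBPβ) and Hoxd11 (MES and HB C/EBPβ). By list, MES C/EBPβ was at 2 Hox genes (5.13%, against 1.72% of coding genes), HB C/EBPβ at 1 (2.56% against 1.08%), HP GATA2 at 1 (2.56% against 0.757%), HP GFI1B at 2 (5.13% against 4.31%) and HP PU.1 at 2 (5.13% against 9.67%). The share of all coding genes lay within the interval of the Hox genes in each of these lists. HP C/EBPβ was at none (upper limit 9.03%, against 4.07%). The lists without a peak in the windows were at no Hox promoter either, against 1.92% of coding genes for MES ELK4, 0.019% for HB GATA2, 0.148% for HE C/EBPβ, 0.319% for HP GATA1, 3.2% for HP RUNX1 and 0.105% for MAC RUNX1, all below the same upper limit. Of the 7 genes, 6 also had a promoter peak in macrophages and Hoxd8 did not, and of the 4190 coding genes with such a peak 94.9% had one.

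C/EBPβ at the early stages was found at a pair of Hox promoters, both at high paralog numbers. Hoxd11 (chr2:74679558-74687016), which acts in the forelimb and kidney, was the Hox gene with promoter peaks in the most lists. The HB peak (chr2:74682126-74682525) was centred 2 bp and the MES peak (chr2:74682148-74682547) 24 bp downstream of its TSS, which is 22 bp between the centres. The MAC C/EBPβ peak of the same gene lay elsewhere, at chr2:74681522-74681921, 602 bp upstream, and did not overlap the early peaks. Over the whole lists, 68.8% of HB and 66.4% of MES C/EBPβ peaks overlapped a MAC C/EBPβ peak. The HE and HP C/EBPβ lists had no peak there. For C/EBPβ the authors had set stricter peak thresholds in HE and HP than in MES and HB, and the least strict in MAC. They list no PCR enrichment at test sites for the MES and HB C/EBPβ samples, which were sequenced all the same.

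The early Hoxd11 region holds 1 C/EBP consensus, and it spans the TSS at position 74682323. It is shown because the centres of both early peaks lie next to it. The consensus searched was any of TTGCGCAA, TTGCGTAA, TTGCACAA and TTGCATAA on either strand, and capitals mark the match in the 30 bases of chr2:74682309-74682338 (plus strand, 5′ to 3′, RefSeq GRCm38).
Hoxd11 TSS, MES and HB C/EBPβ: gcccaagcctcTTGTGCAAtcgatggctca
The 400 bp around 2.11% of all 25999 coding TSS held this consensus, and so did 4 of the 42 Hox TSS, those of Hoxa5, Hoxd11, Hoxb2 and an inner TSS of Hoxa10. MAC C/EBPβ was centred within 400 bp of the TSS at Hoxa5, and no list had a peak centre within 400 bp at Hoxb2 or the inner Hoxa10 TSS.

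The other early promoter was that of Hoxc13 (chr15:102921131-102928814), known from hair follicles and nails. The MES C/EBPβ peak (chr15:102921948-102922347) lay in its intron, 1016 bp downstream of the TSS, and the MAC C/EBPβ peak (chr15:102921960-102922359) was centred 12 bp from it. The HB, HE and HP C/EBPβ lists had no peak there. The single HP C/EBPβ peak of the windows (chr2:74646929-74647328) lay in the flank of HoxD, 12429 bp downstream of the TSS of Evx2, a homeobox gene next to Hoxd13. It was centred 36 bp from a MAC C/EBPβ peak. Over the whole list 91.4% of HP C/EBPβ peaks overlapped a MAC C/EBPβ peak.

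The central 200 bases of these regions are shown, since the first pairs an early with a late peak at a promoter and the second carries the palindromic form of the C/EBP consensus. Capitals mark the C/EBP consensus, and the Hoxc13 sequence (chr15:102922054-102922253) holds none. The second sequence is chr2:74647047-74647246 and opens with a run of T.
Hoxc13 intron, MES and MAC C/EBPβ: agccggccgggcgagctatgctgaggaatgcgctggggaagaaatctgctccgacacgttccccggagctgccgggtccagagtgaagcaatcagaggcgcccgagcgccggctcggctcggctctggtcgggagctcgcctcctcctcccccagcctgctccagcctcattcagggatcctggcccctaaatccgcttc
HoxD flank near Evx2, HP and MAC C/EBPβ: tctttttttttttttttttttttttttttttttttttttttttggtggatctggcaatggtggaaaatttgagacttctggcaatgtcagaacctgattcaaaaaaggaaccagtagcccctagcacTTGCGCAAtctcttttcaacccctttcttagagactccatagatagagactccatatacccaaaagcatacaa
Both C/EBPβ peaks of the HoxD flank also held matches to the RUNX consensus TGTGGTT and the AP-1 consensus TGANTCA, which many myeloid enhancers carry.

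GATA2 and GFI1B were found at single genes in HP. The only GATA2 peak of the windows (chr2:74704710-74705109) lay in an intron of Hoxd8 (chr2:74704615-74707933), 294 bp downstream of the TSS, and no other list overlapped it. It also lies inside the noncoding gene Gm38462 on the other strand. With 75.3% G and C bases it was the richest in these bases of all 88 peaks, and the median over the HP GATA2 list was 51.8%. It held 1 match to the GATA consensus AGATAA, as did 57.9% of the HP GATA2 list. The central 200 bases (chr2:74704810-74705009) are shown for the GATA match, in capitals, within sequence rich in G and C.
Hoxd8 intron, HP GATA2: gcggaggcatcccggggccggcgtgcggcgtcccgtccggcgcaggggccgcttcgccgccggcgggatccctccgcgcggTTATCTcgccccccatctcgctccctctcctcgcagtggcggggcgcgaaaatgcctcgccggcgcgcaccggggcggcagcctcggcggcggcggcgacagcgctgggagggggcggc

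GFI1B, a repressor that acts where endothelium turns into blood, had 4 peaks in HP. At Hoxd9 the peak (chr2:74697687-74698086) was centred 123 bp downstream of the TSS and 82 bp from the MAC C/EBPβ peak. At Hoxa5 the peak (chr6:52203185-52203584) lay in an intron, 1203 bp downstream of the TSS. The other 2 lay in flanks, upstream of Hoxa13 at -12729 bp from its TSS (chr6:52273410-52273809) and in an intron of Ttll6, a tubulin-modifying enzyme gene beyond Hoxb13 (chr11:96145671-96146070). The Ttll6 peak overlapped a MAC PU.1 peak, with 147 bp between the centres. None of the 4 overlapped an HP PU.1, GATA2, RUNX1 or C/EBPβ peak. Over the whole GFI1B list these shares were 10.4%, 5.996%, 8.67% and 5.25%, so that 4 peaks could not show a difference.

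Of the 4 GFI1B peaks, only that at Hoxd9 held the GFI1B consensus AATCACNGC, which was found in 10.2% of the whole list and in 1.10% of all coding TSS windows. The match is given in capitals in its 30 bases (chr2:74697863-74697892), because it lies between the centres of overlapping peaks of 2 stages. The Ttll6 sequence (chr11:96145698-96145897) is given for comparison, with capitals for the ETS core AGGAA that PU.1 shares with other ETS factors.
Hoxd9 promoter, HP GFI1B and MAC C/EBPβ: tttttttttaAATCACAGCagcccccagtt
Ttll6 intron, HP GFI1B and MAC PU.1: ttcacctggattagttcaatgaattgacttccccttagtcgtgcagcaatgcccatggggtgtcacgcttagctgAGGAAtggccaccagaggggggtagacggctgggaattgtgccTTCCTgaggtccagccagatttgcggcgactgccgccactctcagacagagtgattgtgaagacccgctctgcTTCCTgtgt
The Hoxa5 and Hoxa13 peaks of GFI1B each held the GATA consensus AGATAA, which 31.8% of the HP GFI1B list contained.

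PU.1 in progenitors was found again at the same positions in macrophages. All 8 HP PU.1 peaks overlapped a MAC PU.1 peak (100%, interval 63.1% to 100%), as did 96.98% of the whole HP PU.1 list. The centres of the 8 pairs were between 4 and 56 bp apart, with a median of 23.5 bp against 13 bp over the list. The reverse share was 17.0% (7.65% to 30.8%) of the 47 MAC PU.1 peaks, against 12.8% over the list. Of the 8 sites, 2 were at promoters. One was 927 bp upstream of Hoxa10 (chr6:52231197-52240854), which acts in myeloid progenitors and the uterus, at chr6:52241582-52241981. The other was 298 bp downstream of a TSS of Hoxb3 (chr11:96343868-96344267), where it also lay inside the noncoding gene Hoxb3os.

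The other 6 sites were distal. The HoxB site near Hoxb13 (chr11:96202547-96202946) lay within 2 kb of the TSS of the noncoding genes Gm30134 and Gm11538. The HoxC site (chr15:103003044-103003443) lay 6319 bp upstream of the Hoxc6 TSS. HoxD held the remaining 4. They lay 2217 bp upstream of Hoxd11 (chr2:74679907-74680306), 3867 bp downstream of the Hoxd3 TSS in an intron and an exon of the antisense gene Hoxd3os1 (chr2:74715661-74716060), in an exon of the noncoding gene Haglr between Hoxd3 and Hoxd1 (chr2:74749230-74749629), and 31410 bp beyond the Hoxd1 TSS (chr2:74794191-74794590). The Haglr region was bound in 3 lists, the largest number among the 69 merged regions of the windows, with a MAC C/EBPβ peak centred 74 bp from the HP PU.1 peak.

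Of these 8 sites, 2 held the PU.1 consensus GAGGAAGT, those near Hoxb13 and Hoxc6, and all 8 held the shorter ETS core AGGAA. In the whole HP PU.1 list the shares were 42.1% and 96.2%. The central 200 bases of 3 of the sites are shown: the site with the full consensus next to the peak centre, the promoter site at Hoxa10 and the site bound in 3 lists. Capitals mark AGGAA or, where present, GAGGAAGT, on either strand.
Near Hoxb13 (chr11:96202640-96202839), HP and MAC PU.1: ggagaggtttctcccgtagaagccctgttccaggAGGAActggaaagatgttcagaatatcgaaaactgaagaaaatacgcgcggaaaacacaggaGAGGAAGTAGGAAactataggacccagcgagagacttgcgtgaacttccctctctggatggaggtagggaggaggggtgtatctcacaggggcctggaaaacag
Hoxa10 promoter (chr6:52241654-52241853), HP and MAC PU.1: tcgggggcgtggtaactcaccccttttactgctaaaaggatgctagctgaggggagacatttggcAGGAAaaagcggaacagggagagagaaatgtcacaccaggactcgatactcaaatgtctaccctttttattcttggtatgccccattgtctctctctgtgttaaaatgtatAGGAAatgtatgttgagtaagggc
Haglr exon (chr2:74749313-74749512), HP PU.1, MAC PU.1 and MAC C/EBPβ: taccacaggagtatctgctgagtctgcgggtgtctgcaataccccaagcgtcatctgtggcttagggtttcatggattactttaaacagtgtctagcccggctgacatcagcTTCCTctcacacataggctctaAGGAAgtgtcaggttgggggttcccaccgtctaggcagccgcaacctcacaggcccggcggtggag
Near Hoxb13 the full consensus lies 1 bp from the middle of the merged region, directly followed by another core.

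In macrophages C/EBPβ and PU.1 mostly occupied different positions of the Hox windows. Of the 24 MAC C/EBPβ peaks, 6 overlapped a MAC PU.1 peak, or 25% (9.77% to 46.7%), against 42.5% of the whole list, which lay within the interval. Of the 6, 4 lay in the flanks. Inside the gene clusters alone the share was 2 of 15, or 13.3% (1.66% to 40.5%), and the share of the whole list lay just above that interval. Of the 47 MAC PU.1 peaks, 6 overlapped a MAC C/EBPβ peak, or 12.8% (4.83% to 25.7%), and here the share of the whole list, 28.5%, lay above the interval. The shared sites were 1258 to 1308 bp upstream of Hoxa13, 1660 to 1677 bp upstream of Hoxd10, in Haglr, in an intron of the noncoding gene Gm30528 beyond Hoxc4, and at 2 places in the HoxA flanks. The centres were 17 bp apart at Hoxd10, 50 bp at Hoxa13 and between 113 and 131 bp at the other 4. The median was 116.5 bp, against 65 bp over the MAC C/EBPβ list.

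The Hoxa13 site (chr6:52261939-52262388) also lies within 2 kb of the TSS of Hottip, a long noncoding RNA gene at the high-numbered end of HoxA. It was the only 1 of the 6 that held the C/EBP consensus, and the Hoxd10 site was the only 1 that held the PU.1 consensus. Sequences are shown for the Hoxa13 site and for the HoxA flank site on the side of Evx1, a homeobox gene outside the window. Capitals mark the C/EBP consensus and the ETS core AGGAA.
Hoxa13 promoter (chr6:52262064-52262263), MAC C/EBPβ and MAC PU.1: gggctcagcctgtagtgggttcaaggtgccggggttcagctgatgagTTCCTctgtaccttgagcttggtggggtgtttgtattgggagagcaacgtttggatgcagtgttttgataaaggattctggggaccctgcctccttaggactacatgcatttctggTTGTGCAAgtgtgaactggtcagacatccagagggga
HoxA flank towards Evx1 (chr6:52303490-52303689), MAC C/EBPβ and MAC PU.1: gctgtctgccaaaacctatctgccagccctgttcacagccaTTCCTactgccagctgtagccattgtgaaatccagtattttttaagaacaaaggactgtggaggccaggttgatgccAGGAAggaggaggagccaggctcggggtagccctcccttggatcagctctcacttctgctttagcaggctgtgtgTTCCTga
The first of these holds the C/EBP match 68 bp and the nearest ETS core 50 bp from the middle of the merged region, on opposite sides.

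Merging overlapping peaks gave 69 regions in the windows, of which 53 were bound in MAC PU.1 or MAC C/EBPβ only, or 76.8% (65.1% to 86.1%), against 85.3% of the regions of the genome. At least 2 lists were found at 18 regions, or 26.1% (16.3% to 38.1%), against 28% of the 117293 regions of the genome. The share was 8 of 16 regions in HoxD (50.0%, 24.7% to 75.3%), 3 of 11 in HoxC, 4 of 20 in HoxA (20.0%, 5.73% to 43.7%) and 3 of 22 in HoxB (13.6%, 2.91% to 34.9%). The interval of HoxD overlapped those of the other clusters. HoxD also held 9 of the 17 peaks that were not in the MAC PU.1 or MAC C/EBPβ lists. The MES and HB C/EBPβ peaks among them overlap at Hoxd11, and a difference between the clusters was not tested.

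The consensus of the factor was about as frequent in the macrophage Hox peaks as in the whole lists. In MAC PU.1, 14 of 47 peaks (29.8%, 17.3% to 44.9%) held GAGGAAGT, against 24.4% of the list, 2.13% of the 94 windows placed 2 kb to each side of the Hox peaks, and 3.57% of coding TSS windows. The core AGGAA was in 91.5% of the peaks but also in 75.5% of those side windows. In MAC C/EBPβ, 4 of 24 peaks (16.7%, 4.74% to 37.4%) held the C/EBP consensus, against 14.9% of the list and 4.17% of the 48 side windows. They were at Hoxa5, upstream of Hoxa13, at the 3′ end of Hoxb8 and in the HoxD flank. The RUNX consensus was in 2 MAC PU.1 peaks (4.26%, against 10.3% of the list) and 3 MAC C/EBPβ peaks (12.5% against 11.1%). The AP-1 consensus was in 7 (14.9% against 15.8%) and 3 (12.5% against 23.3%), and all these list shares lay within the intervals of the Hox peaks. The CTCF consensus, which marks boundaries within Hox clusters, was in none of the 47 and 24 peaks (upper limits 7.55% and 14.2%), against 1.03% and 0.993% of the lists.

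In the 3 lists with the most Hox peaks, these were richer in CpG than the list. The median ratio of observed to expected CpG was 0.322 in the MAC PU.1 peaks against 0.208 over the list, 0.535 in MAC C/EBPβ against 0.214, and 0.387 in HP PU.1 against 0.209. The single HP C/EBPβ peak was poorer than its list, with 0.111 against 0.311. G and C bases made up a median of 51.5%, 53.5% and 52.4% against 48.5%, 47% and 48.5%. Inside the gene clusters as a whole the ratio of observed to expected CpG was 0.401. The share of MAC C/EBPβ peaks at promoters was 54.2% (32.8% to 74.4%) in the windows and 16.4% over the list, while for MAC PU.1 it was 25.5% (13.9% to 40.3%) and 18.0%. The windows are dense in promoters, and per promoter base neither factor exceeded the genome, as given above.

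The clusters also hold noncoding genes. Of the 29 long noncoding RNA genes of the windows, 15 had a peak within 2 kb of a TSS, or 51.7% (32.5% to 70.6%), and the share of 12638 such genes in the genome, 36.4%, lay within this interval. A peak overlapped the gene at 15, against 49.2% of such genes in the genome. Many share their start with a Hox promoter, so that a peak cannot be assigned to 1 of them. Hoxa11os held MAC PU.1 peaks in an exon and an intron, and Hoxaas3 held the HP GFI1B and MAC C/EBPβ peaks of Hoxa5. Hotair, in HoxC, had no peak inside it and its nearest MAC PU.1 peak was 4227 bp from its TSS. None of the 6 microRNA genes of the clusters had a peak within 2 kb (upper limit 45.9%, against 30.1% of 1228 such genes, so that 6 genes show no absence), and the nearest were MAC PU.1 at 2158 bp from Mir10a and MAC C/EBPβ at 2519 bp from Mir615. Evx2 had MAC PU.1 peaks in a coding exon and 366 bp upstream of its TSS.

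Genes whose products act with or on the Hox clusters had more macrophage promoter peaks than the Hox genes. Of 39 such genes, 32 had a MAC PU.1 promoter peak (82.1%, against 51.4% of coding genes) and 20 a MAC C/EBPβ promoter peak (51.3%, against 37.7%). Outside these lists 8 had a promoter peak (20.5%, against 20% of coding genes). Among the Polycomb genes, 11 of 13 had MAC PU.1 at the promoter, and Eed, a core subunit of the methyltransferase complex, had peaks in 5 lists (HP GFI1B, HP RUNX1, HP PU.1, MAC C/EBPβ and MAC PU.1). Cbx8, a chromodomain subunit, had HP PU.1, MAC C/EBPβ and MAC PU.1. Among the activators 11 of 12 had MAC PU.1, including Kmt2a and its partner Men1, and the retinoic acid receptor gene Rarb had C/EBPβ in MES and MAC. Of the 9 genes for HOX partner proteins, 6 had MAC PU.1, and Meis1, the partner known from blood stem cells, had HP C/EBPβ, HP GFI1B, MAC C/EBPβ and MAC PU.1. Of the Cdx genes, direct activators of the clusters in the embryo, Cdx1 and Cdx2 had MAC PU.1 and Cdx4 had none. Both Ctcf and Rad21, whose products form chromatin loops, had MAC PU.1 and MAC C/EBPβ. Of the marker genes of the sorted cells, the macrophage genes Itgam, Csf1r and Adgre1 had MAC PU.1 and MAC C/EBPβ promoter peaks, and Csf1r also had HP PU.1. The progenitor gene Itga2b (CD41) had HP GATA2, HP PU.1 and MAC PU.1. Kdr (Flk1) had MAC PU.1 only, and T (Brachyury), Tek (Tie2) and Kit had no promoter peak in any list.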

How the data were processed

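The deposited files are peak lists of transcription factor ChIP-seq. The authors trimmed reads with CutAdapt, aligned them to mm10 (GRCm38) with Bowtie, kept uniquely mapped reads, removed duplicates with Picard, called peaks with MACS against input at a p-value threshold chosen by eye for each list, refined them with polyPeak and set them to 400 bp. The submitters' processing notes also name bedtools. For MES and HB C/EBPβ, HB GATA2 and MAC RUNX1 the authors list no PCR enrichment at test sites before sequencing. Tool versions are not given in the sources used here. The deposited values are start and end positions only, with no score or count, so the depth behind each peak is unknown and list lengths do not measure binding.

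Here, TSS came from 21000 coding genes with curated transcripts in RefSeq GRCm38.p6. Promoter peaks had their centre within 2 kb of a TSS, and overlap meant at least 1 bp. Tiles with more than 10% unknown bases were left out. With 1 list per group no test was made. Intervals are exact 95% Poisson or Clopper-Pearson intervals and cover counting error only. Genes named are those with a promoter peak or a peak overlapping the gene, and regions named are those bound in at least 2 lists or outside the MAC PU.1 and MAC C/EBPβ lists. Members, gene lists and comparisons were chosen with earlier results of these data known. Programs (Python 3.11.15, NumPy 2.4.6, SciPy 1.17.1, Matplotlib 3.10.9) were tested on simulated data. Some single-gene results are not reported here.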

Additional observations from a re-analysis of the deposited data

How the results depend on the processing

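Without the flanks (extension 0 kb), the windows held 57 peaks in place of 88, 45 merged regions in place of 69 and 11 regions bound in at least 2 lists in place of 18. Without the MAC PU.1 and MAC C/EBPβ lists, 17 peaks, 16 regions, 1 region bound in at least 2 lists (an alternative added after the data were seen) and 7 genes with a promoter peak remained. Within 5 kb of a TSS, MAC PU.1 was found at 19 Hox genes and any list at 31, and within 1 kb MAC C/EBPβ was found at 8. The shares of all coding genes at these distances are not given here, so these counts cannot be set against the genome. With the ETS core in place of GAGGAAGT, 91.5% of MAC PU.1 peaks held a match. The other 48 of 59 alternatives left counts within 1.5 times and shares and densities within their intervals. They include extensions of 25 and 100 kb, overlap by 200 bp, all annotated transcripts and, added after the data were seen, GENCODE transcripts and other promoter distances for the densities. Inside the gene clusters alone (0 kb), 13.3% of MAC C/EBPβ peaks overlapped MAC PU.1, in place of 25%. The MAC PU.1 density ratio ran from 0.377 to 0.649 in promoter bases and from 1.54 to 2.14 elsewhere. A stricter peak threshold could not be tried, because peaks carry no score. No paired analysis was possible because each group held 1 list. The authors report total aligned reads for their experiments, but sequencing depth was not used here. At its mean density over the genome, each list shorter than HP PU.1 would place fewer than 1 peak in the windows. This mean makes no allowance for the many promoters of the windows.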
